A study of Mus musculus with 17 samples.

Results

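Chromatin accessibility was examined at 8 mouse genes that set whether a B cell enters the cell cycle. They were the transcription factor gene Myc, the D cyclin genes Ccnd1, Ccnd2 and Ccnd3, and the CDK inhibitor genes Cdkn1a, Cdkn1b, Cdkn2a and Cdkn2c. A region belonged to a gene when the deposited table annotated it to that gene's transcript or nearest transcription start, which gave 63 of the 66177 regions in the table. Of these, 8 belonged to Myc, 4 to Ccnd1, 22 to Ccnd2, 14 to Ccnd3, 4 to Cdkn1a, 5 to Cdkn1b, 5 to Cdkn2a and 1 to Cdkn2c. By the table's own annotation 15 of the 63 lay in promoters, 9 overlapped exons, 16 lay in introns and 23 lay outside the genes.

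Accessibility was measured by ATAC-seq, in which the Tn5 transposase cuts and tags DNA where chromatin is open, in 3 stages: naive (nB) and germinal center (GCB) B cells, and plasma cells of the bone marrow (BMPC). Dnmt3-sufficient mice (C, Dnmt3a fl/fl Dnmt3b fl/fl without Cre) were compared with Dnmt3-deficient littermates (KO, Dnmt3a fl/fl Dnmt3b fl/fl with Cre) on a B6;129S4 background, so the floxed alleles were shared by every group. Cre was active in the B lineage, and mice were 8 to 12 weeks old at the start. The nB (B220+ Fas- GL7-) came from lymph nodes of unimmunized male mice, with 3 C and 2 KO libraries of 1 mouse each. The GCB (B220+ Fas+ GL7+ PE+) came from lymph nodes of both sexes 30 days after immunization with phycoerythrin (PE), with 2 C and 4 KO libraries that each pooled 2 mice. The BMPC (CD138+) came from bone marrow of female mice at the same 30 days, with 3 C and 2 KO libraries of 1 mouse each. Between nB and BMPC, cell type therefore cannot be told apart from sex, tissue or immunization. Between nB and GCB it cannot be told apart from immunization or pooling, and between GCB and BMPC from tissue or pooling. Sex also differs in part in these 2 comparisons.

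Values are RPPM, the reads in a region out of every 1000000 reads in all regions of that library. The nB libraries held 4104875 to 6079018 reads in regions and the BMPC libraries 5357687 to 8232313, against 907959 to 2280954 in GCB, where 3 reads corresponded to 1.32 to 3.3 RPPM. Mitochondrial regions took 7.43 to 10.1% of the reads in GCB, 3.1 to 4.59% in nB and 2.56 to 3.12% in BMPC. The start regions of the nB markers Fcer2a, Klf2, Ccr7 and Cd22 had their highest C mean in nB. Among plasma cell markers the start of Tnfrsf17, the receptor BCMA, had C means of 0.392, 1.35 and 20 RPPM in nB, GCB and BMPC, and Prdm1 and Xbp1 were also highest in BMPC, but Irf4 was highest in nB (57.4, 41.1 and 44.1) and Sdc1, which encodes the CD138 used for sorting, had no region within 1000 bp of its start. Among germinal center markers Rgs13 (33.6, 45.7 and 0.364) and Mki67 were highest in GCB, whereas S1pr2 (14.4, 26.2 and 39.3) and Fas (15.3, 20.6 and 31.2) were highest in BMPC.

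Of markers of other cells, none of 5 for T cells had a start region, and of 6 for myeloid cells only Itgam had one, with group means between 0.887 and 5.04 RPPM. The NK cell marker Klrb1c had C means of 1.02, 4.76 and 2.97 RPPM in nB, GCB and BMPC, and Ncr1 had no region. Of erythroid and megakaryocyte markers Klf1 had 49.5, 32.6 and 61.5 and Itga2b 11.3, 16.3 and 19, both highest in BMPC, and Gata1 had no region. The part of such cells in the members' values was not tested.

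The D cyclins activate CDK4 and CDK6, which phosphorylate the retinoblastoma protein and release E2F factors for entry into S phase. Myc drives growth and cell cycle genes and is induced transiently when germinal center B cells are selected. Cdkn1a (p21) and Cdkn1b (p27) encode inhibitors of cyclin and CDK complexes, Cdkn2c (p18) and the Ink4a product of Cdkn2a (p16) block CDK4 and CDK6, and the Arf product of Cdkn2a stabilizes p53. Plasma cells of the bone marrow are non-dividing, whereas germinal center B cells are among the fastest dividing cells of the body, with cyclin D3 as a main D cyclin there.

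Regions are numbered from 5′ to 3′ on the strand of each gene. Those whose accessibility changed most, and the single region nearest to a genotype difference, are shown with their sequence from NCBIM37 (mm9), plus strand, up to the central 300 bases. Capitals mark CpG dinucleotides, the sites at which Dnmt3a and Dnmt3b place methyl groups. The windows lie at chr15:61813024-61813323 (Myc), chr6:127220912-127221211 and chr6:127166590-127166889 (Ccnd2), and chr17:47690028-47690327 and chr17:47660513-47660715 (Ccnd3), and none overlaps an annotated exon.
Myc region 1: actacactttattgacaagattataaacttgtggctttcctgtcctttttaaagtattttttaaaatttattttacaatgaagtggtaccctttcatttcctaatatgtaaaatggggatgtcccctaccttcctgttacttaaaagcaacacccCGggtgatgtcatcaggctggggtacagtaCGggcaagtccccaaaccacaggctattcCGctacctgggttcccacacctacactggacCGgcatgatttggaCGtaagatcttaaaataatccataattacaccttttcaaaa
Ccnd2 region 3: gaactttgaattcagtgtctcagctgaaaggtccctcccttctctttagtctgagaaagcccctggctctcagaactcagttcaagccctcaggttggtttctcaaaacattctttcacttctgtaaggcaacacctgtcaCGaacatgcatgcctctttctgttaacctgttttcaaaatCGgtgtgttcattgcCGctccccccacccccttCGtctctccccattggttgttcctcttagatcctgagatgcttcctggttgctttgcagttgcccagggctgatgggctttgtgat
Ccnd2 region 12: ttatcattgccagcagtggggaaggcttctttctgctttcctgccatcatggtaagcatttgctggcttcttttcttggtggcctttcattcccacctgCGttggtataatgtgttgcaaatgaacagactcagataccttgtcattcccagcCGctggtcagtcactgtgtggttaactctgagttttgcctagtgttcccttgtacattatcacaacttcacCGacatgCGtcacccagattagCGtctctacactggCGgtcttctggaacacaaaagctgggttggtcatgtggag
Ccnd3 region 8: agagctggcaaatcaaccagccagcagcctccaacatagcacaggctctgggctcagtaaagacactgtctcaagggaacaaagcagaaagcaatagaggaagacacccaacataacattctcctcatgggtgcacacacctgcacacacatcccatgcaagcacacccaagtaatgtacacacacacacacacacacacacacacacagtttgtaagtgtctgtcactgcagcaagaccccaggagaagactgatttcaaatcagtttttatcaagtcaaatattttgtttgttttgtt
Ccnd3 region 5: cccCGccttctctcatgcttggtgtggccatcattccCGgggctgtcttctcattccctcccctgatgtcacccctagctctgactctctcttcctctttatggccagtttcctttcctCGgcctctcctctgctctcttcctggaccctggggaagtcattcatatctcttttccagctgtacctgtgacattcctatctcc
These windows held 5, 4, 6, 0 and 3 CpGs in that order, next to a median of 5 over all regions. The Ccnd3 region 8 window held no CpG and carries a run of CA repeats.

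Cdkn2a has separate first exons for Arf and Ink4a, and both starts gained accessibility. The 300 bases before each annotated start are shown on the gene's minus strand, at chr4:88940558-88940857 for Arf and chr4:88928097-88928396 for Ink4a, with CpGs again in capitals.
Cdkn2a Arf upstream window: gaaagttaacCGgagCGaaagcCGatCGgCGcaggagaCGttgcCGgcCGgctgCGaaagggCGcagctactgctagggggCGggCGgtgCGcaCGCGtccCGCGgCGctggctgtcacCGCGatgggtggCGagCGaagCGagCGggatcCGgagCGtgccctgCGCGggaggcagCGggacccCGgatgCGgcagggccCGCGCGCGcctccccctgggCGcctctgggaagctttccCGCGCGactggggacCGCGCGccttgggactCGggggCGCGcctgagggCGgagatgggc
Cdkn2a Ink4a upstream window: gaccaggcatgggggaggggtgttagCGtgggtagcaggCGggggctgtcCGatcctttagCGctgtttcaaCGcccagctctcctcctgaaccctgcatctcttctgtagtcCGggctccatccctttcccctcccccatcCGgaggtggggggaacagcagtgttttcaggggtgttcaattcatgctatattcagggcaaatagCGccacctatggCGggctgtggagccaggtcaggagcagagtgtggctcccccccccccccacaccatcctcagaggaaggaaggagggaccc
The Arf window held 46 CpGs at a GC content of 75.3%, and the Ink4a window held 9 at 61.7%. Over the members the central windows of the 15 promoter regions had a median of 21 CpGs and those of the other 48 regions a median of 5.

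Short cores of factors that act at these genes were searched on both strands of the central 300 bases. The E box of Myc and Max, CACGTG, was present in 2 of 63 member regions (3.17%) and in 6.37% of all regions. The E2A E box CAGCTG was in 12 members and in 20.6% of all regions, the PU.1 core GGAAGT in 16 members (25.4%) and 30.3%, and the IRF4 core GAAAC in 33 members (52.4%) and 55.4%. Among members and all regions, the Oct-2 octamer ATGCAAAT was in 3.17% and 3.96%, the E2F core TTGGCGC in 0% and 1.53%, the Forkhead core TGTTTAC in 6.35% and 4.06%, and the AP-1 core TGACTCA in 4.76% and 6.40%. Of the windows printed, Ccnd2 region 3 held the E2A and IRF4 cores, Ccnd3 region 5 held the E2A, PU.1 and IRF4 cores, and the Ink4a window held the IRF4 core. In the upstream windows of the same length at 22380 protein-coding genes, GAAAC was found in 45.9%.

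A region was called when the adjusted p was at most 0.01 and the change at least 2-fold. From C nB to C GCB, 9 member regions rose and 8 fell out of 63, beside 14.2% of all regions that rose and 8.47% that fell. From C nB to C BMPC, 10 rose and 10 fell, beside 18% and 20.1% of all regions. From C GCB to C BMPC, 10 rose and 9 fell, beside 11.3% and 19.1%. These shares of the members were near those of all regions, so the results below are about which regions changed and not about how many. The 3 comparisons share libraries. The median log2 change over the members was -0.19, -0.10 and 0.04 in that order, and over all regions 0.05, 0.03 and -0.06.

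**Figure D1:**
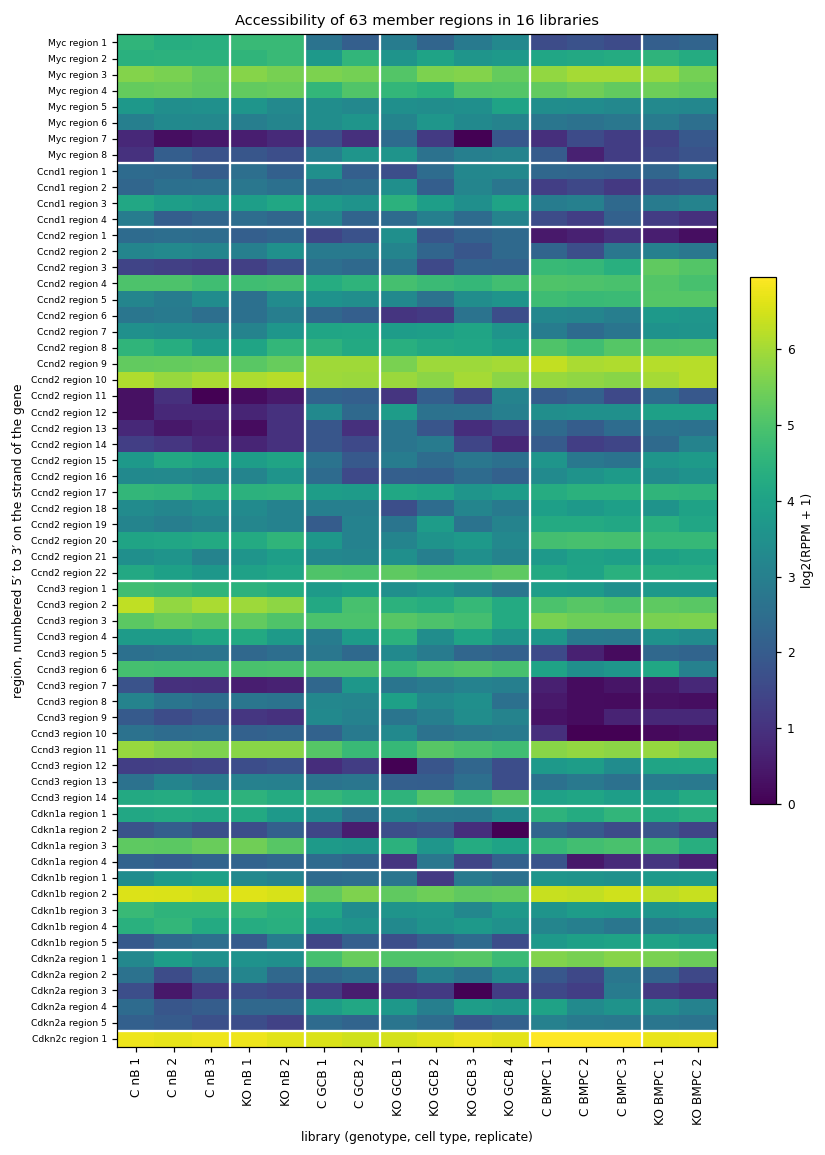
Accessibility of the 63 member regions (rows, numbered 5′ to 3′ within each gene) in the 16 libraries (columns, by group), as log2(RPPM + 1). Cdkn2c region 1 and Cdkn1b region 2 are the brightest rows in nB and BMPC, Cdkn1b region 2 is dimmer in all 6 GCB libraries, and Ccnd3 regions 7 to 10 are dark in all 5 BMPC libraries.

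Myc changed at its flanks, while its start changed by less than 2-fold. The start (region 3, chr15:61816379-61817381) stood at 49.9, 45.8 and 38.3 RPPM in C nB, at 46.6 and 44.5 in C GCB and at 55.9, 63.1 and 63.4 in C BMPC. The nB and GCB libraries overlapped, and the BMPC libraries lay above both by less than 2-fold (log2 change from C nB 0.44 ± 0.14 SE, limma adjusted p = 0.0083). Region 1, 3.6 kb upstream (chr15:61812958-61813388), read 22.4, 19 and 19.9 RPPM in C nB, 5.28 and 3.28 in C GCB and 2.08, 2.37 and 2.02 in C BMPC. Every nB library lay above every GCB and BMPC library. The log2 change was -2.05 ± 0.27 to GCB (adjusted p = 7.6e-07) and -2.76 ± 0.24 to BMPC (adjusted p = 1.5e-10). Region 8, 14.1 kb downstream of the start (chr15:61831091-61831497), was instead open in GCB, at 7.04 and 11.2 RPPM, against 0.974, 3.2 and 2.42 in C nB and 2.99, 0.547 and 1.4 in C BMPC. It rose from nB to GCB by 1.7 ± 0.39 (adjusted p = 0.00079) and fell by 2.01 ± 0.39 on the log2 scale from GCB to BMPC (adjusted p = 8.5e-05). Without C GCB replicate 2 the rise was 1.4 and its adjusted p 0.029. The remaining 5 Myc regions were not called between any 2 cell types of C mice. Among them, region 4, 1.1 kb past the start, read 38.7, 40.1 and 37.2 RPPM in C nB, 23.3 and 32.3 in C GCB and 37.7, 42.3 and 38 in C BMPC, and region 7, 13.3 kb past it, stayed at or below 2.2 RPPM in all C libraries. Summed over its 8 regions, Myc read 146.1 ± 7.3 RPPM in nB of C mice (SD, n = 3), 125.5 ± 13.3 in their GCB (n = 2) and 137.5 ± 5.7 in their BMPC (n = 3).

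Ccnd1 had low accessibility throughout, and none of its 4 regions covered an annotated start in the table. The nearest by the table, region 2, lay 1.6 kb upstream (chr7:152127351-152127568) and read 3.9, 4.9 and 5.02 RPPM in C nB, 4.4 and 4.68 in C GCB and 1.43, 1.82 and 1.25 in C BMPC. GENCODE vM1 has a second Ccnd1 start, at chr7:152124102, to which region 3 lies nearer. Region 3, over an exon 1.9 kb inside the gene (chr7:152123390-152123884), read 16.8, 13.9 and 12.7 in C nB, 12.8 and 10.8 in C GCB and 6.5, 7.12 and 4.2 in C BMPC. In both the BMPC libraries lay below all others. The log2 change from C nB to C BMPC was -1.17 ± 0.30 in region 2 (adjusted p = 0.0016) and -1.17 ± 0.23 in region 3 (adjusted p = 7.3e-05). Region 3 was under 2-fold without C BMPC replicate 3 (-0.98). No Ccnd1 region was called from nB to GCB in either genotype by limma, with 0 of 4 at an unadjusted p under 0.05.

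Ccnd2 gained accessibility in a long upstream stretch. Region 3, 119.6 kb upstream (chr6:127220662-127221460), read 1.71, 1.51 and 1.3 RPPM in C nB, 4.84 and 4.22 in C GCB and 24.7, 23.9 and 19.9 in C BMPC. The 3 cell types did not overlap. Its log2 change of 3.25 ± 0.26 from C nB to C BMPC (adjusted p = 2.5e-11) was the largest of the members in that comparison, and that from C GCB to C BMPC was 2.11 ± 0.29 (adjusted p = 8.5e-07). Region 12, 65.2 kb upstream (chr6:127166232-127167246), was nearly closed in nB, at 0.244, 0.754 and 0.744 RPPM from 1 to 4 reads, and read 8.8 and 4.22 in C GCB and 9.88, 10.2 and 10.1 in C BMPC. Every GCB and BMPC library lay above every nB library (2.2 ± 0.34, adjusted p = 8.3e-06, and 2.83 ± 0.31, adjusted p = 7.5e-09), and the change from GCB to BMPC missed the test (0.63 ± 0.34, adjusted p = 0.13). Region 11, 68.4 kb upstream, followed region 12 at lower levels, with means of 0.395, 3.4 and 2.78 RPPM in C nB, C GCB and C BMPC. Region 13, 56.2 kb upstream, read 0.731, 0.377 and 0.558 in C nB, 2.64 and 0.937 in C GCB and 4.29, 3.1 and 4.52 in C BMPC, and region 5, 113.8 kb upstream, read 8.04, 6.59 and 9.49, then 10.6 and 9.84, then 26.8, 25 and 25.5. Both were highest in BMPC, by a log2 change from C nB of 1.67 in region 13 and 1.58 in region 5.

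The Ccnd2 start itself (region 19, chr6:127100774-127101104) opened in BMPC. It read 7.8, 6.78 and 7.82 RPPM in C nB, 3.08 and 7.49 in C GCB and 17.9, 18.1 and 17.1 in C BMPC. The change from nB to BMPC was 1.15 ± 0.27 on the log2 scale (adjusted p = 0.00061), and from nB to GCB -0.52 ± 0.30 (adjusted p = 0.16). Region 20, in the intron 1.1 kb past the start, read 15.6, 16.2 and 17.7 in C nB, 11.9 and 7.49 in C GCB and 28.5, 29.2 and 29 in C BMPC, and was called from GCB to BMPC (1.51). It also covers an exon of the lincRNA gene 9330179D12Rik on the opposite strand and a start without a gene symbol. Region 20 therefore cannot be assigned to Ccnd2 alone, and regions 13 to 20 all overlap that lincRNA gene. Not all of the locus opened. Region 1, the most distal at 137.9 kb upstream, fell from 4.39, 4.71 and 4.47 RPPM in C nB to 0.39, 0.547 and 0.934 in C BMPC (-1.78 ± 0.34, adjusted p = 5.6e-05). Regions 15 and 16, 11.7 and 4.5 kb upstream and inside the lincRNA gene 9330179D12Rik on the opposite strand, were lower in GCB, with means of 15 and 8.42 RPPM in C nB against 4.04 and 3.14 in C GCB. Region 22, in an intron 8.2 kb inside the gene, was higher in GCB, with 31.7 and 30.4 RPPM against 17.3, 14.5 and 11.9 in C nB and 17.7, 15.3 and 20.1 in C BMPC. The region with the highest level per kb of this gene in nB, region 10 at 85.3 kb upstream, did not pass the test between cell types, with means of 64.2, 59.2 and 54.4 RPPM. Summed over its 22 regions, Ccnd2 averaged 293.1 ± 11.2 RPPM (SD, n = 3) in nB of C mice, 298.7 ± 12.4 (n = 2) in their GCB and 402.4 ± 16.1 (n = 3) in their BMPC.

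Ccnd3 had 5 regions (5, 6 and 8 to 10) called lower in C BMPC than in both C nB and C GCB, all between its first and its downstream start. Region 8, 48.0 kb from the first start (chr17:47690002-47690353), read 7.55, 5.46 and 4.65 RPPM in C nB and 8.36 and 7.96 in C GCB, against 0.39, 0.182 and 0.156 in C BMPC, where it rested on 3 reads or fewer per library. All BMPC libraries lay below all others, and the log2 change was -2.45 ± 0.30 from nB (adjusted p = 8.6e-08) and -2.89 ± 0.34 from GCB (adjusted p = 6.3e-08). These fitted changes depend on the pseudocount of 1 RPPM and are no bound. Region 10, 51.7 kb from the first start, read 5.12, 4.52 and 4.65 in C nB, 3.52 and 6.09 in C GCB and 0.91, 0 and 0 in C BMPC. Region 5, at 18.5 kb, and region 6, at 26.2 kb, fell from means of 5.18 and 28.1 RPPM in C nB to 0.885 and 12.3 in C BMPC. Region 3, 6.0 kb from the first start, was not called and read 35.6, 40.7 and 37 in C nB, 30.8 and 30.4 in C GCB and 45.6, 41.8 and 41.6 in C BMPC, so that its BMPC libraries lay above the others.

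In the same stretch, regions 7 and 9 were higher in GCB. Region 7, 28.4 kb from the first start (chr17:47670441-47670643), read 2.44, 0.942 and 0.931 RPPM in C nB, 3.96 and 11.7 in C GCB and 0.52, 0.182 and 0.311 in C BMPC. Its rise from nB to GCB was 1.76 ± 0.38 (adjusted p = 0.00046), and 1.08 without C GCB replicate 2 (adjusted p = 0.052). In Dnmt3-deficient mice the same region read 0.494 and 0.59 in nB and 5.51, 6.36, 7.45 and 6.99 in GCB. Region 9, at 48.9 kb, read 2.92, 2.07 and 2.61 in C nB, 8.8 and 7.49 in C GCB and 0.26, 0.182 and 0.623 in C BMPC. Both lay higher in every GCB library than in any nB or BMPC library of C mice.

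Near its ends Ccnd3 behaved otherwise. Region 2, in the intron 2.7 kb from the first start (chr17:47644673-47645499), read 76.5, 55.4 and 65.5 RPPM in C nB, 17.2 and 29.5 in C GCB and 30.6, 34.5 and 31.8 in C BMPC, so that nB lay above both (log2 change to GCB -1.49 ± 0.18, adjusted p = 1.3e-07). The first start (region 1) read 27.3, 25.8 and 22.3 in C nB, 12.8 and 14.5 in C GCB and 13.7, 13.0 and 9.97 in C BMPC, and missed the 2-fold limit in both comparisons. The downstream start (region 11, chr17:47730062-47730919) read 57.5, 50.1 and 47.8 in C nB, 33.9 and 25.3 in C GCB and 51.2, 55.5 and 52.5 in C BMPC. It was lower in GCB by less than 2-fold (-0.80 ± 0.15, adjusted p = 8.9e-05) and overlapped between nB and BMPC. Region 12, 1.9 kb past that start and exonic in the table but intronic in GENCODE vM1, opened in BMPC from 1.46, 1.51 and 1.67 RPPM in C nB and 0.88 and 1.41 in C GCB to 12.6, 13.7 and 9.5 (log2 change 2.33 ± 0.38 from nB, adjusted p = 6e-06). Region 14 overlaps an exon of the neighbouring gene Bysl and cannot be assigned to Ccnd3 alone.

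**Figure D2:**
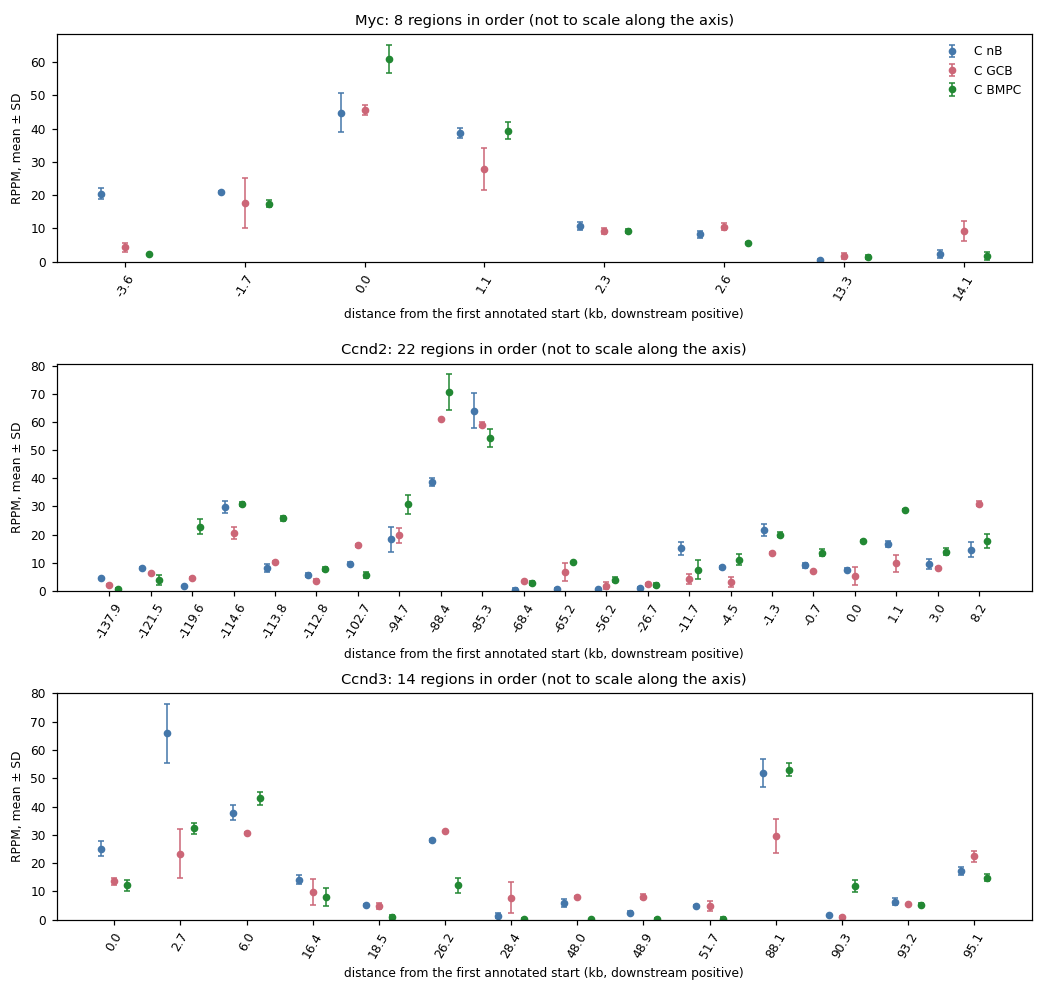
RPPM (y axis, mean ± SD over libraries of Dnmt3-sufficient mice) of each region of Myc, Ccnd2 and Ccnd3 in order along the gene, with its distance from the first annotated start in kb on the x axis. Myc region 1 (3.6 kb upstream) is highest in nB, Ccnd2 region 3 (119.6 kb upstream) is highest in BMPC, and Ccnd3 regions 7 to 10 (28.4 to 51.7 kb) lie near 0 in BMPC.

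The starts of the CIP/KIP inhibitors were less accessible in GCB, but GCB was not lowest in every region of these genes. Cdkn1a region 4 had C means of 3.53, 4.07 and 1.2 RPPM in nB, GCB and BMPC, and Cdkn1b region 3 had 23, 12.8 and 12.4. The Cdkn1a start that had a region (region 1, over the second of 3 annotated starts, chr17:29230415-29231273) read 16.8, 18.1 and 16.9 RPPM in C nB, 8.8 and 5.15 in C GCB and 21.5, 18.4 and 22.9 in C BMPC. Region 3, 1.2 kb past that start, read 36.5, 36 and 40.4 in C nB, 12.8 and 11.7 in C GCB and 24.3, 27.6 and 29.9 in C BMPC. In both the GCB libraries lay below all others. The log2 change from nB to GCB was -1.23 ± 0.23 at the start (adjusted p = 7e-05) and -1.55 ± 0.20 in region 3 (adjusted p = 3.9e-07), and from GCB to BMPC 1.49 ± 0.23 (adjusted p = 3.4e-06) and 1.09 ± 0.20 (adjusted p = 3.8e-05). The call at the start from nB to GCB was lost without C GCB replicate 2 (-0.90) and with a pseudocount of 5 RPPM (-0.91), both under 2-fold.

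The Cdkn1b start (region 2, chr6:134869890-134870976) read 94.5, 93.6 and 87.7 RPPM in C nB, 37.4 and 47.8 in C GCB and 81.8, 78.1 and 85.6 in C BMPC. It fell from nB to GCB by 1.1 ± 0.11 on the log2 scale (adjusted p = 1e-08). The change was just past the 2-fold limit: it was -0.91 under quantile normalization and -0.93 without C GCB replicate 1. Region 1, 3.5 kb upstream, read 9.5, 13.2 and 14.3 in C nB, 4.4 and 4.68 in C GCB and 11.3, 10.8 and 10.3 in C BMPC (log2 change from nB to GCB -1.25, adjusted p = 0.0031), and this call was lost when any of C nB replicates 2 and 3 or C GCB replicates 1 and 2 was left out, with adjusted p of 0.013 to 0.030. At the 3′ end, regions 4 and 5 separated BMPC in opposite directions. Region 4, over the 3′ exon, read 20.5, 23.4 and 18.1 in C nB, 12.3 and 10.8 in C GCB and 7.93, 6.93 and 5.61 in C BMPC (log2 change from nB -1.47 ± 0.19, adjusted p = 1.9e-07). Region 5, just beyond the 3′ end (chr6:134875729-134876033), read 2.92, 4.14 and 4.84 in C nB, 1.76 and 3.28 in C GCB and 12.5, 14.4 and 15.3 in C BMPC (log2 change from nB 1.61 ± 0.28, adjusted p = 2.1e-05). The nearest start to region 5 lies 3.1 kb away and is not that of Cdkn1b, so region 5 cannot be assigned to Cdkn1b alone.

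Start regions as a class were lower in GCB, which bears on these values. Over the 11533 start regions of all genes the median log2 change from C nB to C GCB was -0.20, and 6.59% were called lower, whereas over the other 54644 regions the median was 0.13. Of the 8 member start regions, 6 had a negative log2 change in this comparison, beside 63.8% of all start regions. Called lower were 2, those of Cdkn1a and Cdkn1b. The 11533 start regions lie within 1000 bp of a start and so hold 7 of the 8. Ccnd1 region 2, 1.6 kb upstream, is not among them. What part the class-wide difference, the lower depth or the mitochondrial share of the GCB libraries had in the members' values was not tested. Fewer cells with an open region and less opening per cell cannot be told apart in these bulk libraries.

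Cdkn2a went the other way. Its Arf start (region 1, chr4:88940230-88941669) read 8.53, 13.6 and 10.2 RPPM in C nB, 29 and 39.3 in C GCB and 48.2, 44.7 and 50.3 in C BMPC. Its Ink4a start (region 4, chr4:88927508-88928490) read 4.39, 2.64 and 3.16 in C nB, 13.6 and 16.9 in C GCB and 15, 8.94 and 10.9 in C BMPC. At both starts every nB library lay below every other library, and at Arf the 3 cell types did not overlap. The Arf start rose by 1.59 ± 0.18 to GCB (adjusted p = 5.9e-08) and by 2.07 ± 0.16 to BMPC (adjusted p = 1.3e-11). For Ink4a the rises were 1.9 ± 0.28 (adjusted p = 3.3e-06) and 1.51 ± 0.25 (adjusted p = 7.4e-06). Between GCB and BMPC neither start was called (0.48 ± 0.18, adjusted p = 0.025, and -0.39 ± 0.28, adjusted p = 0.25). The 3 other Cdkn2a regions, in introns, had means from 0.894 to 6.47 RPPM and were not called in C mice.

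The single Cdkn2c region, over its start (chr4:109337700-109339952), was 2253 bp wide and had no call. It read 109, 102 and 108 RPPM in C nB, 92.8 and 85.7 in C GCB and 121, 123 and 121 in C BMPC. The cell types did not overlap, but all 3 changes were under 2-fold, the largest being 0.44 ± 0.09 from GCB to BMPC (adjusted p = 0.00024).

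**Figure D3:**
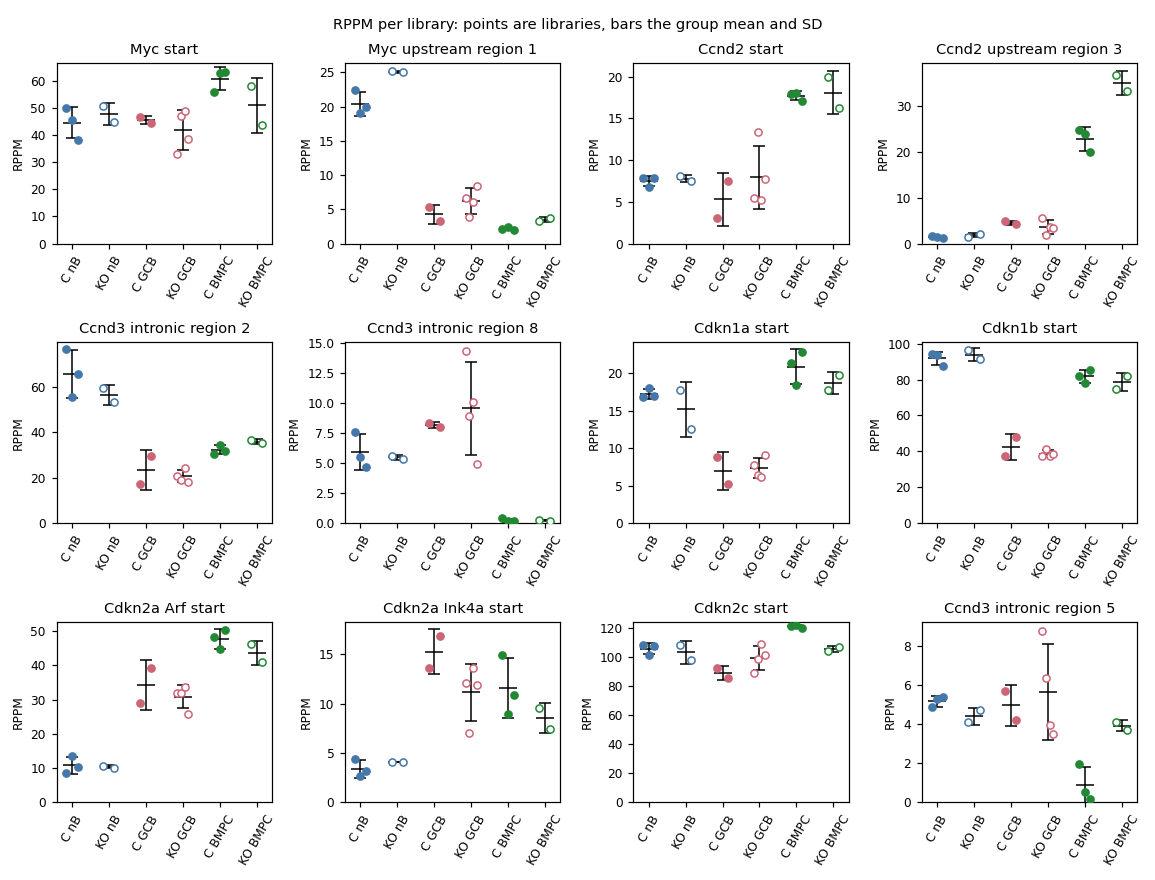
RPPM (y axis) per library of 12 regions. Filled points are Dnmt3-sufficient (C) and open points Dnmt3-deficient (KO) libraries of nB (blue), GCB (red) and BMPC (green), with group mean and SD, cut off at 0. Myc region 1 and Ccnd3 region 2 are highest in nB, the Cdkn1a and Cdkn1b starts are lowest in GCB and both Cdkn2a starts are lowest in nB, in both genotypes.

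Among start regions of other genes, the pattern of the Cdkn1b start was most like those of Capg (Pearson r = 0.99 over 16 libraries), Mir1893 (0.99) and Pdk2 (0.99). That of the Arf start was most like Slc25a34 (0.98), Sec24d (0.98) and Rhpn1 (0.98), and that of the Ccnd2 start most like Arvcf (0.97), Acer3 (0.96) and Prdx2 (0.95). For the Cdkn1a start the nearest was Vmac (0.97), for the downstream Ccnd3 start Tfpt (0.98), for Ccnd1 region 2 Hes3 (0.93), for Myc Pole2 (0.90) and for Cdkn2c Tex261 (0.90). These were the highest of 11526 start regions compared, and the libraries share cell type, sex and depth, and no p is given.

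The same cell type comparisons in Dnmt3-deficient mice used other libraries. From KO nB to KO GCB, 8 member regions rose and 8 fell, beside 18.4% and 7.84% of all regions, and from KO nB to KO BMPC 11 rose and 8 fell, beside 18.4% and 16.9%. From KO GCB to KO BMPC, 13 rose and 9 fell, beside 12.1% and 19.9%. Quantile normalization shifted the median log2 change of all regions by -0.11 from C nB to C GCB and by 0.14 from C GCB to C BMPC. It turned the KO split from nB to GCB to 5 member rises and 14 falls, beside 7679 and 7477 of all 66177 regions. Under TMM scaling that split was 8 and 12, beside 11531 and 6169. The C split from GCB to BMPC became 14 and 8 under quantile normalization, beside 9585 and 9871 of all regions. Of the 17 calls from nB to GCB in C mice, 14 were also called in KO mice in the same direction (82.4% of the C calls and 87.5% of the KO calls, beside 76.9% and 66.5% over all regions). From nB to BMPC 16 of 20 were shared (80.0% and 84.2%, beside 79.9% and 86.3%), and from GCB to BMPC 16 of 19 (84.2% and 72.7%, beside 77.7% and 73.9%). All of the C calls had the same sign in KO mice, as did 99.2 to 99.7% of the C calls over all regions. Myc region 1 read 25.2 and 25 RPPM in KO nB, 6.61, 3.82, 6.14 and 8.39 in KO GCB and 3.28 and 3.73 in KO BMPC. The Arf start read 10.7 and 10.0 in KO nB, 31.9, 31.8, 33.8 and 25.9 in KO GCB and 46.2 and 41.1 in KO BMPC. The Cdkn1b start read 96.6 and 91.3 in KO nB, 37.4, 41.4, 37.3 and 38.5 in KO GCB and 74.9 and 82.1 in KO BMPC.

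Whether KO and C libraries differed at these regions within a cell type was tested next. Only KO mice carried Cre, so its presence cannot be told apart from loss of Dnmt3a and Dnmt3b. In GCB the genotypes also differed in their mix of male and female pools. By limma 0 of 63 members were called in nB, 0 in GCB and 0 in BMPC, beside 0%, 0.0317% and 0.104% of all regions. At an unadjusted p under 0.05 there were 1, 5 and 7 member regions, beside 1.67%, 11.8% and 9.55% of all regions. By count models on the recovered reads, the edgeR quasi-likelihood test called 1 member in BMPC, the edgeR likelihood ratio test 2 and DESeq2 1, beside 1.81%, 2.53% and 0.746% of all regions, so that these counts were near the background, and none of the 3 called a member in nB or GCB. The members' log2 changes spanned -0.77 to 0.56 in nB. The span was -0.60 to 0.85 in GCB and -0.84 to 1.5 in BMPC, with median standard errors of 0.28, 0.26 and 0.28. In BMPC every KO library lay above every C library in 18 of 63 members (28.6%, beside 20% of all regions) and below in 5 (7.94%, beside 13.8%).

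The member nearest to the threshold was Ccnd3 region 5, in an intron (chr17:47660513-47660715), whose sequence is printed above. It read 1.95, 0.547 and 0.156 RPPM in C BMPC, from 15, 3 and 1 reads, and 4.13 and 3.73 in KO BMPC, from 34 and 20 reads. Both KO libraries lay above all C libraries, which themselves spread widely. The log2 change was 1.5 ± 0.37 with a limma adjusted p of 0.048, above the limit of 0.01. It was called by the edgeR quasi-likelihood test (1.95, adjusted p = 0.0019), the edgeR likelihood ratio test (1.95, adjusted p = 8.9e-05) and DESeq2 (2.02, adjusted p = 0.0078). Leaving out each library in turn moved the limma adjusted p between 0.011 and 0.40, the lowest without C BMPC replicate 1 and the highest without KO BMPC replicate 2. In nB the region read 4.87, 5.27 and 5.4 in C and 4.11 and 4.72 in KO, and in GCB 5.72 and 4.22 in C and 8.81, 6.36, 3.95 and 3.5 in KO. From KO nB to KO BMPC it was not called (-0.13 ± 0.40, adjusted p = 0.81), whereas in C mice it fell by 1.83 ± 0.33 (adjusted p = 2.6e-05). The difference between the genotype effects of BMPC and nB was 1.69 ± 0.52 with a limma adjusted p of 0.52.

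Of the 7 BMPC regions with an unadjusted p under 0.05, 5 were Ccnd2 regions, all higher in KO. Region 7, 102.7 kb upstream (chr6:127203752-127204559), read 6.5, 4.38 and 5.45 RPPM in C BMPC and 10.6 and 11 in KO BMPC (0.88 ± 0.23, adjusted p = 0.062). Region 3, at 119.6 kb, read 24.7, 23.9 and 19.9 in C and 36.8 and 33.2 in KO (0.60 ± 0.29, adjusted p = 0.52). Region 14, 26.7 kb upstream, read 2.99, 1.46 and 1.71 in C and 4.25 and 7.65 in KO and was the second region called by the likelihood ratio test (1.39, adjusted p = 0.0088). Regions 10 and 15 had limma adjusted p of 0.27 and 0.38. The libraries of the genotypes did not overlap in regions 3, 7, 10 and 14. In BMPC every KO library lay above every C library in 20% of all regions. These Ccnd2 regions were picked by a small p, so the lack of overlap is not separate evidence. Summed over its regions Ccnd2 read 402.4 ± 16.1 RPPM in C BMPC (SD, n = 3) and 465.0 ± 5.4 in KO BMPC (n = 2), while the difference was within the spread in nB (293.1 ± 11.2 and 303.0 ± 33.8). The sums were not tested.

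The remaining region was the Cdkn2c start, at 121, 123 and 121 RPPM in C BMPC and 104 and 107 in KO BMPC (-0.20 ± 0.09, adjusted p = 0.47). In GCB the smallest p belonged to the first Ccnd3 start, region 1, at 12.8 and 14.5 RPPM in C and 9.91, 11.5, 8.77 and 5.59 in KO (-0.60 ± 0.22, adjusted p = 0.26). In nB it belonged to Ccnd3 region 9, at 2.92, 2.07 and 2.61 in C and 1.15 and 0.984 in KO (-0.77 ± 0.32, adjusted p = 1). The 8 start regions differed between genotypes by -0.19 to 0.18 in nB on the log2 scale. The differences were -0.13 to 0.52 in GCB and -0.26 to 0.34 in BMPC, and none was called. Tests of whether the genotype effect differed between cell types called 0 members by limma, beside 0 of all 66177 regions. At an unadjusted p under 0.05 were 4 of 63 members for BMPC against nB (5.24% of all regions). There were 10 for BMPC against GCB (8.32%) and 2 for GCB against nB (6.21%). The edgeR likelihood ratio test called 1 member, Ccnd3 region 5, for BMPC against nB, beside 0.267% of all regions.

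**Figure D4:**
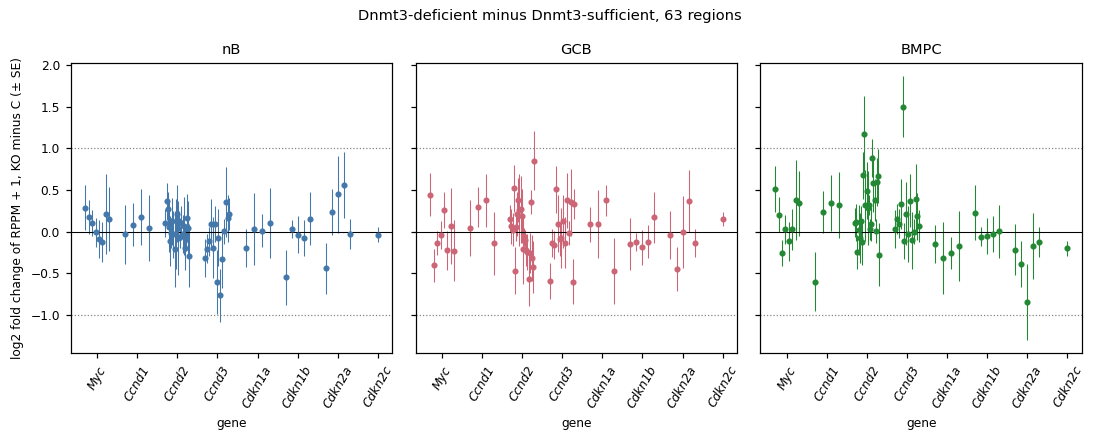
Log2 fold change of RPPM + 1, KO minus C (y axis, points with SE), for the 63 member regions by gene in nB, GCB and BMPC, with dotted lines at 2-fold. All nB and GCB points and 61 of 63 BMPC points lie within the dotted lines, and Ccnd3 region 5 at 1.5 is the highest BMPC point.

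Other genes of G1 control were counted from lists of 42 genes, of which 40 had 291 regions. From C nB to C BMPC 79 of these regions rose (27.1%, beside 18% of all regions) and 39 fell (13.4%, beside 20.1%), and from C nB to C GCB 53 rose (18.2%, beside 14.2%) and 19 fell (6.53%, beside 8.47%). The lists' median log2 change was 0.23 and 0.19, beside 0.03 and 0.05 over all regions. Other CDK inhibitors and their regulators had 54 regions, of which 21 rose (38.9%) and 3 fell in C BMPC and 17 rose (31.5%) and 5 fell in C GCB. The Myc network list, 12 genes such as Max, Mnt, Mlxip and Zbtb17, had 22 rises (29.7%), many in distal regions annotated to Max, and 8 falls in 74 regions in C BMPC. G1 and S cyclins and kinases had 14 (25.5%) and 5 in 55, pocket proteins and E2F factors 9 (14.3%) and 10 in 63, and Pvt1, the noncoding neighbour of Myc, 13 (28.9%) and 13 in 45.

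Among these genes, the start of Cdkn2b, the adjacent gene for the CDK4 and CDK6 inhibitor p15, read 27.3 ± 1.7 RPPM (SD, n = 3) in nB, 53.1 ± 10.4 (n = 2) in GCB and 77.8 ± 5.7 (n = 3) in BMPC of C mice. It was called from nB to BMPC (log2 change 1.47 ± 0.14, adjusted p = 5.9e-10) and was under 2-fold from nB to GCB (0.92 ± 0.16, adjusted p = 2.5e-05). The start of Bmi1, a Polycomb gene, read 79.7 ± 3.8 (n = 3), 21.5 ± 6.7 (n = 2) and 77.2 ± 1.7 (n = 3). It was called lower in GCB (-1.88 ± 0.15, adjusted p = 1.2e-10) and did not pass the test between nB and BMPC (-0.05 ± 0.13, adjusted p = 0.80). Both were picked after their values were seen. Within genotype comparisons the lists had 1 called region, 43.0 kb upstream of Skp2, which encodes a receptor for the degradation of p27, at 5.81 ± 1.02 RPPM in KO GCB (n = 4) and 0.468 ± 0.662 in C GCB (n = 2), the latter below the level of 3 reads. That was 1 of 291 regions beside 0.0317% of all regions, and DESeq2 called 0% of all regions in GCB, so it was not called there.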

How the data were processed

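Per the labels and the study's methods, the authors trimmed the ATAC-seq reads, aligned these with Bowtie (mm9) and merged the MACS2 peaks of the single samples into 1 set of regions. The submitters' processing notes list Bowtie 1.1.1, Picard 1.127, MACS2 2.1.0.20140616 and edgeR 3.12.1. The deposited values are RPPM, an RPM unit in which the authors scaled each region's reads to the library's total over the regions. All values were whole multiples of 1 read (tolerance 0.01 reads), so the depth and the reads were recovered. The deposited columns of 9 comparisons by the authors (fold changes and p-values) were not used, and 1 of 17 samples, a KO BMPC sample, was not analysed here.

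Log2(RPPM + 1) was fitted with limma 3.58.1 (trended eBayes, R 4.3.3) over 16 libraries in 6 groups, with no filter, and p-values were adjusted by Benjamini-Hochberg over 66177 regions. Other groups share the estimate of spread. A region was called at 2-fold or more when its adjusted p did not exceed 0.01. Log2 changes are on the log2(RPPM + 1) scale, which understates changes at low levels. Alternatives were other pseudocounts, a filter at a mean of 1 RPPM, TMM and quantile scaling, leaving out chrM, only the groups compared, each library left out, a replicate block, and edgeR 4.0.16 and DESeq2 1.42.0 on the recovered reads. Regions named were, per gene, the start region, the region of highest mean and up to 3, 2 and 1 called regions of largest change for C BMPC against C nB, C GCB against C nB and C BMPC against C GCB, and, per cell type, the region of smallest p between genotypes. Other regions (such as Ccnd2 regions 5, 7, 13 to 16, 20 and 22 and Ccnd3 region 6) were named after their values were seen. The members and gene lists were chosen with earlier results of these data known. Genome windows, starts and exons came from NCBIM37 with GENCODE vM1. The level of 3 reads given per library covers counting error only. Some genes and alleles are not reported here.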

Additional observations from a re-analysis of the deposited data

How the results depend on the processing

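A pseudocount of 5 RPPM gave 8 member calls from C nB to C GCB, 9 from C nB to C BMPC and 8 from KO nB to KO GCB. It gave 9 from KO nB to KO BMPC and 10 from KO GCB to KO BMPC. Calls over all 66177 regions fell in number too. From C nB to C GCB they were 4324 rises and 2488 falls (9427 and 5602 in the main fit). From C nB to C BMPC they were 5673 and 6614 (11897 and 13330), and from KO nB to KO GCB 4643 and 2366 (12205 and 5188). From KO nB to KO BMPC they were 6497 and 6260 (12172 and 11178), and from KO GCB to KO BMPC 4081 and 6019 (8013 and 13138). Leaving out each library in turn gave 10 to 17 calls from C nB to C GCB, with 10 without C GCB replicate 2, and 11 to 21 from KO nB to KO BMPC, with 11 without KO nB replicate 1 and 12 without KO BMPC replicate 2. Over all regions both rises and falls were also fewer without each of these named libraries, whose removal leaves a single library in its group. Between genotypes in BMPC the edgeR quasi-likelihood test called 1 member, the edgeR likelihood ratio test 2 and DESeq2 1 (1.81%, 2.53% and 0.746% of all regions). The likelihood ratio test called 1 for BMPC against nB (0.267% of all regions). The cause was not tested. Small uncalled log2 changes from C nB to C GCB changed sign: the Myc start was -0.00029 by the likelihood ratio test and -0.069 to 0.12 with each library left out, Ccnd1 region 2 was 0.049 without chrM and -0.11 to 0.044 with each library left out, and the Ccnd2 start was -1.05 to 0.0075. From C nB to C BMPC the downstream Ccnd3 start was -0.033 under quantile normalization and -0.017 to 0.11 with each library left out. Of 1379 alternative values of named regions, 1331 kept direction and call, 33 lost the call and 6 gained it. With the GCB pool name as a replicate block, 0 members were called between genotypes in GCB, as without it. Over all 66177 regions the block moved the GCB calls from 21 higher and 0 lower in KO to 107 higher and 28 lower. Pools of the same name correlated at 0.036 and 0.064 in their deviations from the group means. With 2 C GCB libraries these deviations mirror each other, so this check cannot decide whether the name pairs libraries. The name was not taken to pair them. GCB libraries were the shallowest, so that values of 1 to 3 reads stand at higher RPPM there.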
